A study of Mus musculus with 4 samples.

Results

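Checkpoint receptors are surface proteins that restrain or assist the activation of lymphocytes. They are described here in single group 2 innate lymphoid cells (ILC2) from mouse pancreas. The set was a list of 10 symbols: Klrg1, Icos, Ctla4, Pdcd1, Cd200r1, Tnfrsf4, Tnfrsf9, Tnfrsf18, Tnfrsf25 and Cd28. Of these, 9 were measured among the 11352 gene rows of plate 1, and Cd28 was not analysed here. The labels give the genotype as C57BL6J and the reporter as KIKR, a fluorescent protein that violet light turns from green to red. Red (photoconverted) and green (non-photoconverted) cells shared the plate. The labels give no feeding state, age, animal or light exposure for single cells. The antibodies of the ILC2 sort are not given in the labels, so whether a receptor took part in the gate cannot be told.

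In ILC2, as in T cells, many inhibitory receptors carry tyrosine motifs that recruit phosphatases and so dampen signals from cytokine or antigen receptors. Members of the CD28 family such as ICOS send a positive signal through phosphoinositide 3-kinase. Costimulatory receptors of the tumour necrosis factor (TNF) receptor family bind TRAF adaptors and activate NF-kB. ILC2 lack an antigen receptor and are known to respond to interleukin-33, to ICOS ligand and to TNF family ligands such as TL1A.

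Of 12 red and 151 green wells on plate 1, 8 red and 98 green cells had at least 500 genes and under 25% mitochondrial reads, and 221 wells were left empty. A gene counted as detected in a cell at 16 or more reads. Red cells had more genes than green ones, with medians of 2748.5 (938 to 5129) and 1637 (502 to 4480). Their median gene reads were 540662 against 187690, while median spike-in reads were 59283.5 against 67405. Shares in red cells were therefore set against depth-matched green cells, the 5 nearest in log gene number for each red cell, which had a median of 2718.5 genes and the weight of 22.9 equal cells. Plate 1 is 1 sample and cells are not replicates, so no test was made, and intervals are exact 95% binomial ones that cover counting error only. The cells carried ILC2 transcripts: Gata3 was detected in 8 of 8 red and 82 of 98 green cells, and 92 of the 106 cells held 3 or more of 8 ILC2 markers. The least detected of the 8 were Rora, in 2 red and 6 green cells, and Il5, in 7 and 23. Gata3 also reached the detection limit in 7 of the 221 empty wells. Foxp3 and Cd3e, which define regulatory T cells and T cells, reached the detection limit in 0 of 106 cells (a count of 0 leaves room for shares up to 2.83%). Other markers of these lists were present, with Cd3g in 2 red and 9 green cells and Ikzf2 in 3 and 18. Only 4 of the 7 T cell markers listed were among the gene rows. Cst3, listed as a myeloid marker, was detected in 6 red and 29 green cells and Kit, listed as a mast cell marker, in 5 and 18. Nkg7 of natural killer cells was detected in 4 green cells and Cd79b of B cells in 5, and neither in red cells.

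Among the 9 measured receptors, 2 pairs are neighbours with no coding gene between them. Tnfrsf4 (OX40) and Tnfrsf18 (GITR) lie 9551 bases apart on chromosome 4. The stretches around their start sites are shown because detection of the pair differed so widely. They run from 250 bases before to 50 after the start on the plus strand, at chr4:156013445-156013744 for Tnfrsf4 and chr4:156026072-156026371 for Tnfrsf18 (RefSeq, GRCm38.p6). Capitals mark words of the GATA motif.
Tnfrsf4: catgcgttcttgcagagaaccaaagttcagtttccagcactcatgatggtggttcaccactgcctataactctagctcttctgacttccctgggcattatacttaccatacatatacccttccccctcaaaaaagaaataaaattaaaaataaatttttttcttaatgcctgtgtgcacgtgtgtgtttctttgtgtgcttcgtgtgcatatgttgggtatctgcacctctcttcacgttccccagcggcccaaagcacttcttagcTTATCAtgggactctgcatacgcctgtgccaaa
Tnfrsf18: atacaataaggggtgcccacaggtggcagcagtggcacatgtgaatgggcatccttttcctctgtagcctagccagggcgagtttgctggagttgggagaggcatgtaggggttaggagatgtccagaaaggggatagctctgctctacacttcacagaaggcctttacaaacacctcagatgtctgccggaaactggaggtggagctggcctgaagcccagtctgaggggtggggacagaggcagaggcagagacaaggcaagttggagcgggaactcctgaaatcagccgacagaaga
The words searched on both strands were TGATAA, then AGATAA with a leading adenine, TGATAG with a trailing guanine, and AGATAG with both. The Tnfrsf4 stretch held 1 such word and the Tnfrsf18 stretch 0, and 30.2% of 27025 promoters of the same length held at least 1. Tnfrsf18 was detected in 41 of 98 green cells and Tnfrsf4 in 1. Icos and Ctla4, on chromosome 1, lie 62094 bases apart, and Icos was detected in 42 green cells against 2 for Ctla4. Each of these 2 pairs held 1 gene seen in 41 or 42 green cells and 1 seen in 1 or 2.

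Klrg1 was the most widely detected of the receptors. It encodes an inhibitory lectin-like receptor for cadherins that marks mature ILC2 (chromosome 6, 122270596 to 122282882, minus strand, mm10). The 8 red cells held 948, 67, 1476, 2135, 80, 60, 2175 and 160 reads. Every red cell was thus positive, at levels from 117 to 2830 counts per 1000000 gene reads (CPM). In green cells reads ran from 0 to 2017 with a median of 47, and 56 of 98 were positive (57.1%, 46.7 to 67.1%). Red and green levels overlapped across the whole red range. At matched depth 87.5% of green cells were positive, 12.5 percentage points below the red cells, whose interval ran from 63.1 to 100%. The difference was 0 points without red cell 8, the shallowest with 938 genes. Mean levels were 1366 CPM in red, 770 in all green and 894 in depth-matched green cells. The empty wells held at most 8 reads of Klrg1.

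The other inhibitory receptors were detected in fewer cells. Pdcd1 encodes PD-1, which recruits the phosphatase SHP-2 when bound by its ligands (chromosome 1, 94038305 to 94052553, minus strand). Red cells held 22, 66, 0, 0, 0, 0, 914 and 0 reads, so 3 of 8 were positive and 1 of them held most of the reads. Among green cells 25 were positive (25.5%, 17.2 to 35.3%), with a highest count of 273. At matched depth the green share was 37.5%, the same as in red cells. Cd200r1 encodes the inhibitory receptor for CD200 (chromosome 16, 44765736 to 44794978, plus strand). Red cells held 196, 1, 0, 36, 40, 2, 5 and 38 reads, so 4 of 8 were positive, at 36 to 196 reads. Their levels ran from 21.5 to 672 CPM, the highest in the shallowest red cell. In green cells 30 were positive (30.6%, 21.7 to 40.7%), and the depth-matched share was 42.5%. Ctla4, which competes with CD28 for the B7 ligands (chromosome 1, 60887000 to 60915832, plus strand), was positive in 1 red cell at 56 reads and in 2 green cells (2.04%, 0.248 to 7.18%). The 2 positive green cells held 216 and 39 reads, and the first held 67.5% of the Ctla4 reads in all cells.

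Icos was the second most widely detected receptor in green cells and, at 16 reads, the only one whose share was lower in red than in depth-matched cells. It encodes the inducible costimulator (chromosome 1, 60977927 to 61000320, plus strand). Red cells held 257, 0, 557, 10, 483, 0, 308 and 1 reads. They split into 4 cells with over 250 reads and 4 with 10 or fewer. Green cells held 0 to 1703 reads with a median of 3, and 42 were positive (42.9%, 32.9 to 53.3%). The red share was 50% (15.7 to 84.3%) against 70% at matched depth, a difference of -20 points. It was -2.5 points at 1 read and -7.5 points at 4 reads. At 1 read Tnfrsf25 (-20 points), Tnfrsf18 (-10), Pdcd1 (-7.5), Tnfrsf4 (-7.5) and Ctla4 (-5) were also lower in red. Mean levels were 470 CPM in red, 577 in all green and 937 in depth-matched green cells. The order of colours turned with the matching, since against all green cells the red share was 7.14 points higher. Where Icos was detected in green cells its level was high, with a median of 1017 CPM.

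Among TNF receptors, Tnfrsf18 was found most often. GITR lowers the threshold of activation in effector lymphocytes (chromosome 4, 156026164 to 156028895, plus strand). Red cells held 428, 86, 0, 579, 6, 211, 682 and 0 reads, and 5 of 8 were positive. Of green cells 41.8% (31.9 to 52.2%) were positive, and the depth-matched share of 62.5% equalled the red one. Mean levels were 293 CPM in red and 139 CPM in depth-matched green cells. The equal shares held at 16 reads, and at 64 reads the red share was 25 points higher. The highest green level of 1355 CPM lay above the highest red one of 693 CPM. Tnfrsf25 encodes DR3, the receptor for TL1A (chromosome 4, 152115934 to 152120119, plus strand). Red cells held 21, 27, 0, 239, 0, 0, 213 and 0 reads, and 4 of 8 were positive, 2 of them close to the detection limit. The green share was 21.4% (13.8 to 30.9%) and the depth-matched share 35%. Share and level went opposite ways for Tnfrsf25, with mean levels of 56.1 CPM in red and 120 CPM in depth-matched green cells.

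Tnfrsf9 showed the widest gap between red and depth-matched cells, on very few cells. It encodes 4-1BB, which is known to appear on activated lymphocytes (chromosome 4, 150914562 to 150946102, plus strand). Camta1 overlaps it on the opposite strand, and whether the counting used strand is not given in the sources used here. Red cells held 0, 0, 186, 1708, 0, 70, 1 and 0 reads. The 3 positive cells made up 37.5% (8.52 to 75.5%), against 5 of 98 green cells (5.10%, 1.68 to 11.5%) and 12.5% at matched depth. The difference was 25 points, and 17.1 to 31.4 points when each red cell was left out in turn. A single red cell, the deepest one with 5129 genes, held 70.8% of all Tnfrsf9 reads in the 106 cells. At 1 read or more the shares were 50% in both red and depth-matched cells. Tnfrsf4 encodes OX40, the receptor for OX40 ligand (chromosome 4, 156013843 to 156016612, plus strand). It reached 16 reads in 1 green cell, at 17 reads, and in 0 of 8 red cells, a count that leaves room for a share up to 37.5%.

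**Figure D1:**
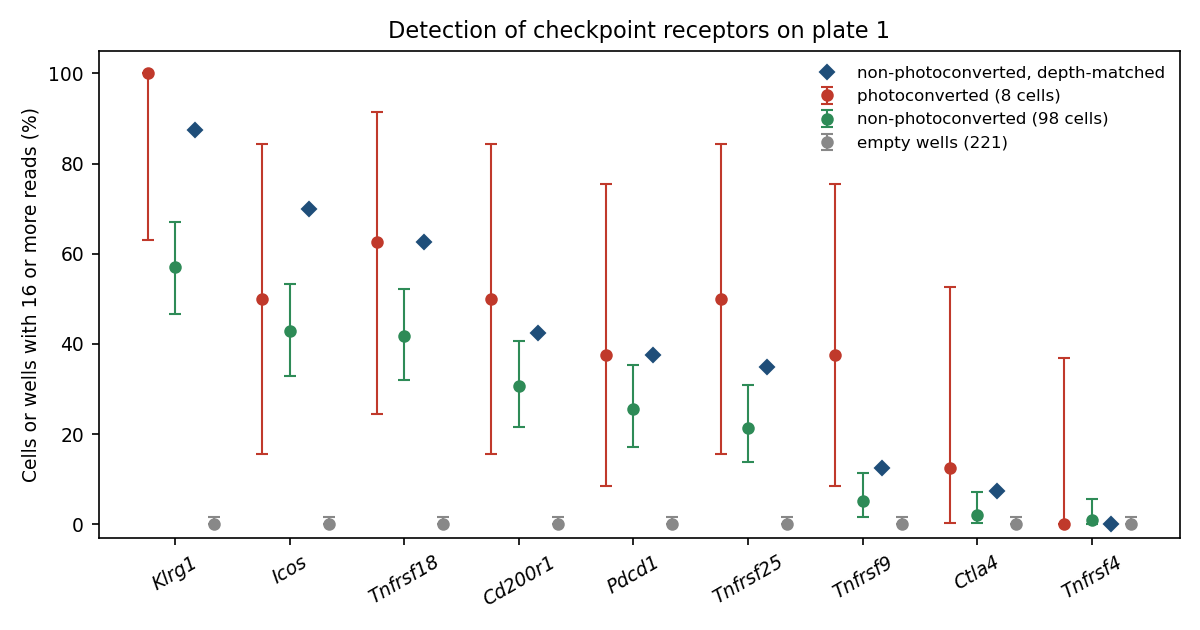
Share of cells or wells with 16 or more reads of each receptor (vertical axis, %), for photoconverted, non-photoconverted and empty wells with exact 95% binomial intervals, and for depth-matched non-photoconverted cells as diamonds without an interval. Each diamond lies inside the interval of the 8 photoconverted cells, which is wide and held a 25-point gap for Tnfrsf9. Every receptor was at 0 of 221 empty wells.

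**Figure D2:**
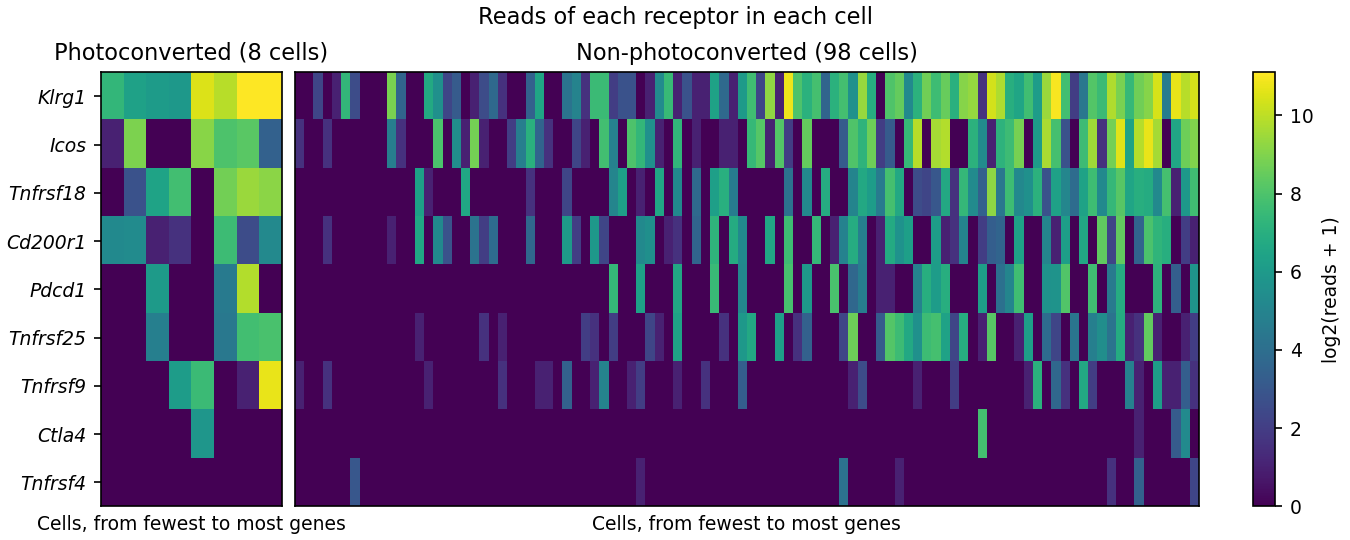
Reads of the 9 receptors in each of the 106 cells, as log2(reads + 1) on the colour scale, with cells of each colour ordered from fewest to most genes. Klrg1 was present in all 8 photoconverted cells, at 60 to 2175 reads, and most receptors filled in toward the deeper non-photoconverted cells.

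For all 9 receptors the depth-matched green share lay inside the exact interval of the red share. With 8 red cells these intervals were wide, at 15.7 to 84.3% for Icos. They held even the 25-point gap of Tnfrsf9, so lying inside them is no sign of equal shares. The receptors that reached the minimum of 10 positive cells set for the comparison over all genes were the 6 common ones, Klrg1, Icos, Pdcd1, Cd200r1, Tnfrsf18 and Tnfrsf25. Of 3530 genes so compared, 12.1% were higher in red than in depth-matched cells by 25 points or more and 5.64% were lower by that much. None of the 6 receptors was called in either direction. Their median difference was 3.75 points, against 2.5 points over all genes compared. Tnfrsf9 differed by 25 points but was left out of this comparison, since only 8 cells were positive for it. Empty wells gave no detection of any receptor in 221 wells, a count of 0 that leaves room for shares up to 1.36%.

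Drawing every cell down to 1000 gene reads gave a second view at 1 fixed number of reads. The expected share of cells with at least 1 Klrg1 read was then 60.1% in red, 34.3% in all green and 47.6% in depth-matched green cells. For Icos it was 26.4%, 26.2% and 41.6%. Tnfrsf18 was drawn in 22.9%, 11.6% and 12%, and Tnfrsf9 in 13.1%, 1.45% and 1.86%. Against depth-matched cells the order of colours for Klrg1, Icos and Tnfrsf9 was therefore as in the undrawn data, and red stood higher for Tnfrsf18. For Tnfrsf25 the order turned, with 5.21% in red and 9.69% in depth-matched cells.

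Within green cells, detection of most receptors went with the depth of the cell. The 98 cells were ordered by gene number and divided into 33 shallow (502 to 1194 genes), 33 middle (1220 to 2026) and 32 deep cells (2067 to 4480). Klrg1 was detected in 24.2%, 54.5% and 93.8% of them. Icos was detected in 18.2%, 39.4% and 71.9%, and Tnfrsf18 in 6.06%, 48.5% and 71.9%. Pdcd1 and Tnfrsf25 were found in none of the shallow cells and in 50% and 43.8% of the deep ones. Cd200r1 was detected in 15.2%, 39.4% and 37.5%. From middle to deep cells the intervals parted for Klrg1 alone and overlapped for the other 5 common receptors. By share over all green cells, Klrg1 stood first, followed by Icos, Tnfrsf18, Cd200r1, Pdcd1, Tnfrsf25, Tnfrsf9, Ctla4 and Tnfrsf4. The intervals of each pair of neighbours in that order overlapped, except those of Tnfrsf25 and Tnfrsf9.

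**Figure D3:**
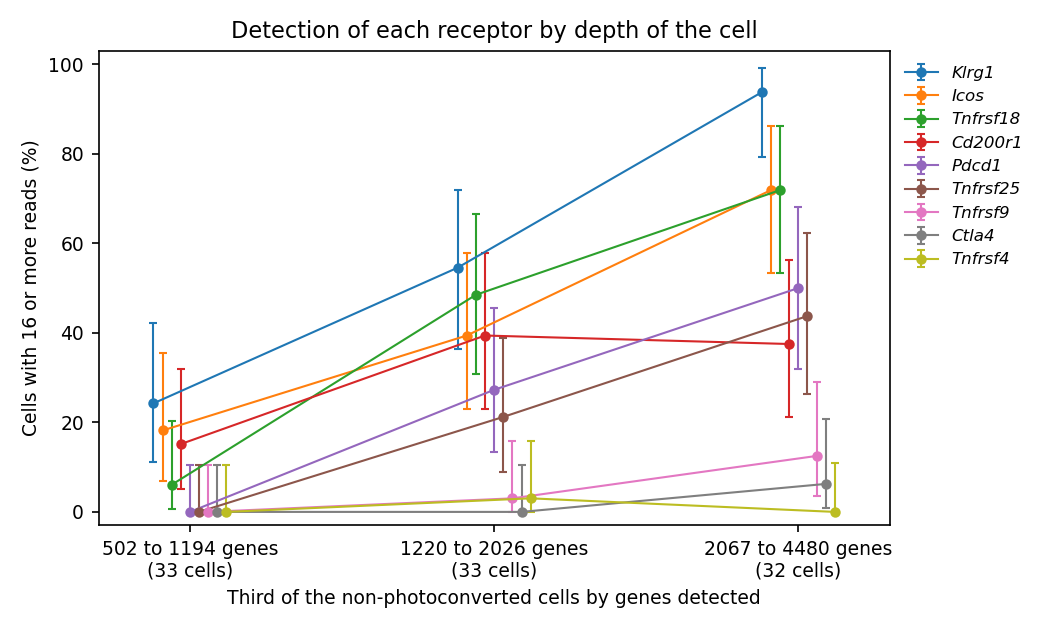
Share of non-photoconverted cells with 16 or more reads of each receptor (vertical axis, %) in 33 shallow, 33 middle and 32 deep cells by gene number, with exact 95% binomial intervals. Klrg1 runs from 24.2% to 93.8%, while Cd200r1 is at 39.4% and 37.5% in middle and deep cells.

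Several receptors were detected together in most red and deep green cells, with a median of 4 in each. Over all green cells the median was 2, and 18 green cells held only 1 receptor. Red cells held 4 ± 1.31 of the 9 receptors (mean ± SD over 8 cells, range 2 to 6). Green cells held 2.28 ± 1.77 (98 cells, range 0 to 6), and depth-matched green cells 3.55. Shallow, middle and deep green cells held 0.636, 2.36 and 3.88. At least 4 receptors were detected in 62.5% of red, 31.6% of all green and 60% of depth-matched green cells. At like depth the number of receptors per cell thus differed by 0.45, less than the SD between red cells. No receptor was detected in 22 green cells and in 0 red cells, and 19 of those 22 were shallow. The commonest combinations in green cells were Klrg1 alone (7 cells), Icos alone, Tnfrsf18 alone, and Klrg1 with Icos, Pdcd1 and Tnfrsf18 (5 cells each).

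**Figure D4:**
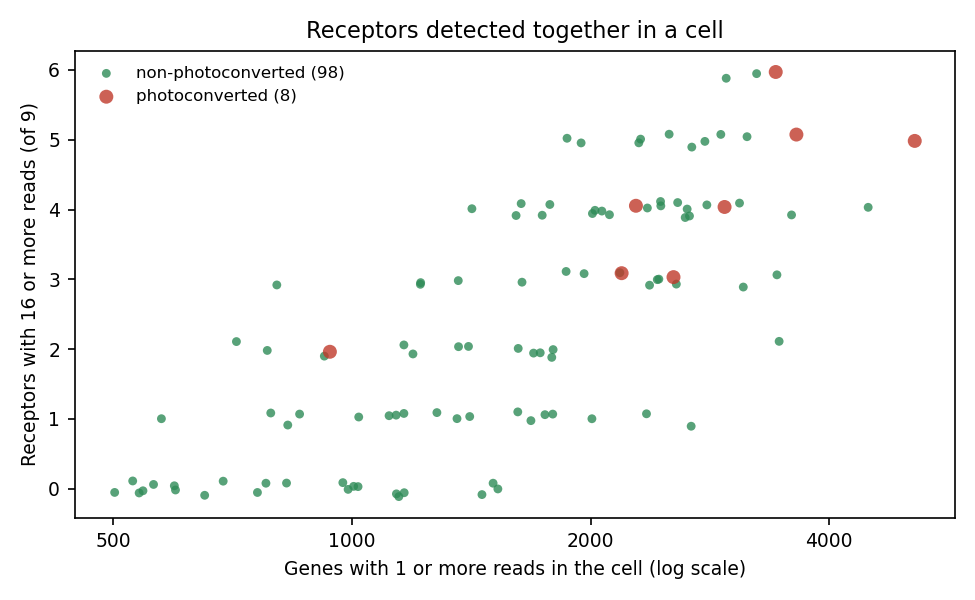
Number of the 9 receptors with 16 or more reads (vertical axis, moved slightly up or down at random to part overlapping points) against genes per cell (horizontal axis, log scale). Photoconverted cells held 2 to 6 receptors and lie among non-photoconverted cells of like gene number.

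Pairs of receptors were compared within green cells, between cells positive for one receptor and depth-matched cells negative for it. The 6 common receptors gave 30 such comparisons, in both directions of 15 pairs. The second receptor was more frequent in positive cells in 21 and less frequent in 8, with a median difference of 5.08 points and a range of -11.4 to 37.5. Of these differences 3 reached 25 points and none reached -25. Among all genes, 0.575% (Cd200r1 split) to 7% (Klrg1 split) reached 25 points, and 0.406% (Cd200r1) to 1.89% (Tnfrsf18) reached -25. The median over all genes was 6.79 points in the Klrg1 split and 2.93 in the Tnfrsf18 split. It was 1.90 for Icos, 1.6 for Pdcd1, 0.667 for Cd200r1 and 0 for Tnfrsf25. Most splits thus leaned upward over all genes too. Both directions of a pair count the same cells positive for both.

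Pdcd1 and Icos went together in both directions. Icos was detected in 19 of 25 Pdcd1-positive cells (76%, 54.9 to 90.6%) against 39.2% of depth-matched Pdcd1-negative cells. Of 2959 genes compared in this split, 3.24% were higher by 25 points or more and 1.15% were lower by that much. Icos was the 1 receptor of 5 that was higher, and 0 were lower. Pdcd1 was detected in 45.2% of Icos-positive and 15.7% of depth-matched Icos-negative cells, where 1.86% of genes and 1 receptor of 5 were higher by 25 points, and 0.71% of genes and 0 receptors lower. Both splits were well matched, with median gene numbers of 2313 and 2359 for Pdcd1 and of 2207 and 2178 for Icos. With a detection limit of 64 reads the differences were 5.33 points for Icos in Pdcd1-positive cells and 2.78 points for Pdcd1 in Icos-positive cells. Drawn down to 1000 reads they were 25.4 and 2.90 points.

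Klrg1 and Cd200r1, a pair of inhibitory receptors, also went together at 16 reads. Cd200r1 was detected in 44.6% of Klrg1-positive and 7.14% of depth-matched Klrg1-negative cells, a difference of 37.5 points. In that split 7% of genes and 1 receptor of 5 were higher by 25 points or more, and 1.49% of genes and 0 receptors lower. Its matching was incomplete: negative cells had a median of 1728 genes against 2145.5 in positive cells, and weighed as 10.4 equal cells. In the reverse split, which was closely matched, Klrg1 was found in 83.3% of Cd200r1-positive and 61.3% of negative cells, below the limit of 25 points, which 0.575% of genes passed upward and 0.406% downward. At 64 reads the pair turned around, with differences of -14.6 and -7.37 points. Icos and Klrg1 showed less of a link, with Icos in 53.6% of Klrg1-positive and 40% of depth-matched negative cells. That difference of 13.6 points stood beside a median of 6.79 points over all genes in the same split, and was -6.02 points at 1 read. Tnfrsf18 and Tnfrsf25 added little to each other: Tnfrsf18 was found in 61.9% of Tnfrsf25-positive and 66.7% of depth-matched negative cells. With Tnfrsf18 or Tnfrsf25 as the first receptor, 0 of 5 receptors reached 25 points upward, against 2.81% and 2.26% of genes, and 0 of 5 downward, against 1.89% and 1.55%.

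**Figure D5:**
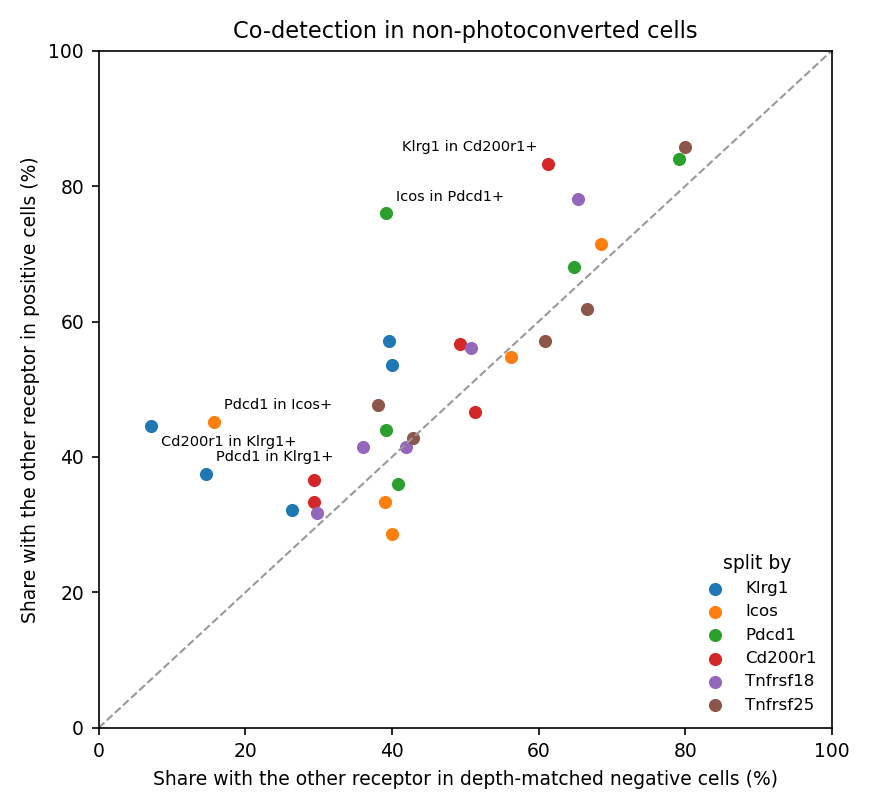
Share of non-photoconverted cells with a second receptor among cells positive for a first one (vertical axis, %) against depth-matched cells negative for it (horizontal axis, %), coloured by the first receptor. Of the 30 points 21 lie above the dashed line of equal shares, and Icos in Pdcd1-positive cells stands at 76% against 39.2%.

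In red cells the counts of pairs were small. Klrg1 was detected with Icos in 4 of 8 red cells and in 67.5% of depth-matched green cells. Icos and Pdcd1 were found together in 2 red cells (25%) and in 35% of depth-matched cells. Tnfrsf18 and Tnfrsf25 were found together in 4 red cells (50%) and in 22.5%. The last 2 comparisons go opposite ways by 1 or 2 cells.

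The genes whose detection was most like that of each receptor were ranked by the same difference between positive and depth-matched negative green cells, over 2897 genes and as a description only. For Icos they were Selk (40.95 points), Calm3 (37.1) and Crlf3 (36.7). For Pdcd1 they were Odc1 (44.8 points), the rate-limiting enzyme of polyamine synthesis, Wnk1 (43.2) and Hilpda (41.6), a lipid droplet protein induced by hypoxia. For Tnfrsf18 they were Samsn1 (49.8 points), Tmem64 (48.3) and Arl6ip1 (41.95). For Tnfrsf25 they were Uhrf1bp1l (53.3 points), Slc3a2 (40), the heavy chain of the LAT1 amino acid transporter, and Cct7 (39.0). For Klrg1 they were Srsf2, Sdha and Hspe1 (46.8 to 48.6 points), and for Cd200r1 Ankrd13a, Mta2 and Bst2 (30 to 40 points). No receptor was among the 3 leading genes of another, which says little because each split named only 3 of 2897 genes.

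Markers of T cells moved with some receptors. Cd3d, Cd3g or Cd8a was detected in 12 cells, 2 of them red. Tnfrsf18 was positive in 75% of these and in 39.4% of the other 94 cells, and Tnfrsf25 in 50% and 20.2%, while Klrg1 was positive in 58.3% and 60.6%. Cd200r1 went the other way, with 16.7% and 34.04%. The 12 cells were deeper, with a median of 2355 genes against 1628, and their part in the Tnfrsf18, Tnfrsf25 and Cd200r1 values was not tested. Cd3e was detected in none of them. Ikzf2, which regulatory T cells also express, was detected in 3 red and 18 green cells.

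Other receptors and partners were taken from lists of the same pathways. Of 12 further inhibitory receptors, 2 had a higher and 5 a lower share in red than in depth-matched cells, and 5 were equal. Over all 3530 genes compared 53.8% were higher, but those genes met the minimum of 10 cells and most of the 12 did not. Lilrb4, a receptor with inhibitory tyrosine motifs, was the 1 of them in enough cells to compare, at 8 of 8 red, 55.1% of green and 85% of depth-matched cells. Lag3 and Tigit, inhibitory receptors of exhausted T cells, were in 0 of 106 cells. Of 11 further receptors listed as costimulatory, 5 were in enough cells. Of these 4 were higher by 25 points or more, against 12.1% of all genes compared, and 1 was lower by that much, against 5.64%. Cd27 was detected in 75% of red and 42.5% of depth-matched cells, and Tnfrsf1b, the receptor TNFR2, in 50% and 5%. Tnfrsf10b, the mouse TRAIL receptor, and Tnfrsf26, a gene of the same family, were each detected in 37.5% and 7.5%. Cd81, a tetraspanin, went the other way with 37.5% and 70%. These shares rest on 3 to 6 red cells. Tnfrsf1b and Tnfrsf26 were each detected in 7 green cells, so they met the minimum of 10 cells only through red cells. For these genes the filter itself favoured a higher red share, and the count of 4 is no support for a difference.

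Signalling partners were mixed. Among 12 TNF receptor signalling genes compared, 8 were higher in red and 3 lower, with a median of 8.75 points. Over all 3530 genes compared, 53.8% were higher and the median was 2.5 points. Traf1, a TRAF adaptor that binds 4-1BB, was detected in 62.5% of red and 22.5% of depth-matched cells, and Traf3, a brake on the alternative NF-kB pathway, in 12.5% and 37.5%. Of these 12, 1 was higher by 25 points or more (Traf1) and 1 was lower by that much (Traf3). Over all genes compared these shares were 12.1% and 5.64%. Of 11 CD28 family signalling genes 4 were higher and 5 lower, and none differed by 25 points, which is little set against those shares. Of 6 inhibitory signalling genes 5 were higher and 0 lower. Rasa1, a negative regulator of Ras, stood at 62.5% and 30%, and Inpp5d, the phosphatase SHIP-1, at 50% and 40%. Rasa1 was the 1 of the 6 that was higher by 25 points or more, and 0 were lower by that much. The ligands were rare: Pdcd1lg2, which binds PD-1, was detected in 1 red and 11 green cells, and Icosl in 0 and 6. Cd274, which encodes the other PD-1 ligand, was detected in 1 red and 5 green cells.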

How the data were processed

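Single ILC2 were sorted into 384-well plates and made into CEL-seq2-based libraries, per the labels' protocols. The authors deposited raw read counts per gene and well, not counts of molecular identifiers, and a sort record with each well's colour and red fluorescence intensity. STAR, STARsolo and edgeR were used with mm10, per the submitters' processing notes, with no version or role given. Row names were used for plate 1 only: its rows named as mitochondrial held 5.63% of reads, against 0.0110 to 0.0531% on plates 2 to 4. Spike-in rows were left out of gene reads, and CPM values are reads per 1000000 gene reads.

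Detection at 16 reads, shares with exact intervals, matching and draws to 1000 reads were computed with Python 3.11.15, numpy 2.4.6, pandas 2.3.3 and scipy 1.17.1. Matching used the 5 nearest cells in log gene number, with replacement. Genes in at least 10 cells were compared over the whole table, and a difference of 25 points or more was called. No p-value was computed, because plate 1 is 1 sample. Reads without molecular identifiers are not independent molecules. No doublet caller was run on sorted single cells.

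The receptors, lists and settings were chosen with earlier results of these data known. All members and all genes of the fixed lists could be named, and for each common receptor the 3 most alike genes, leaving out ribosomal, mitochondrial and numbered gene models and genes in over 90% of cells. Coordinates are from GENCODE M21 on mm10, which paired all 10 symbols. RefSeq promoters matched Ctla4, Pdcd1, Tnfrsf4, Tnfrsf9, Tnfrsf18 and Tnfrsf25. The share calculation was tested on simulated data. Other detection limits, matching, filters and left-out cells were tried.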

Additional observations from a re-analysis of the deposited data

How the results depend on the processing

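With 8 red cells on 1 plate, differences in share below the width of the exact intervals were not detectable at this depth. Of 168 alternative values, 143 stayed within the exact 95% interval of the share in red or receptor-positive cells, and the others moved beyond it. For receptors per cell the limit was 1 SD, and for levels a set factor. These limits are wide, so values of opposite sign could count as staying. Icos at 7.14 against -20 points did so, and so did Tnfrsf25 at -4.47 in drawn cells against 15. Receptors per cell did too, at -0.325 against 0.45. The count of 143 is therefore no measure of robustness. With a red share of 100%, the Klrg1 interval ended at the main difference of 12.5 points, so any larger value counted as moved (10 values). The Tnfrsf4 interval began at its main difference of 0, so any negative value counted as moved (4 values). The cause of the other moves was not tested. The Klrg1 difference of 12.5 points was 15 with 10 nearest cells or with depth taken as genes at 16 reads or more, 42.9 without matching, and 0 with a minimum of 1000 genes or without the 2 red cells of lowest fluorescence. Both settings that gave 0 left out red cell 8, which had 938 genes and a red fluorescence of 2338. The Klrg1 difference ran from 0 to 14.3 when each red cell was left out, 0 again being without red cell 8. The Icos difference of -20 points ran from -25.7 to -11.4 in the same way, and was 7.14 without matching, -2.5 at 1 read and -7.5 at 4 reads. Tnfrsf18, at 0 points, stood at 25 points at 64 reads and -10 at 1 read. Receptors per cell differed by 0.229 to 0.686 when each red cell was left out and by -0.325 at 1 read. Icos in Klrg1-positive cells was -6.02 points at 1 read and 9.002 to 25 points in the other settings. The log2 ratio of Icos levels, red to depth-matched, was -0.996 for means and -1.60 for medians. Tnfrsf25 stood at -20 points at 1 read and Cd200r1 at -22.5 points at 64 reads, and Tnfrsf4 at -7.5 points at 1 read. The pairs of Icos with Pdcd1 and of Klrg1 with Cd200r1 were recomputed after seeing the data. Cd200r1 in Klrg1-positive cells was 21.4 points at 4 reads, 9.63 in cells drawn to 1000 reads and -14.6 at 64 reads. Klrg1 in Cd200r1-positive cells was -7.37 points at 64 reads. No paired analysis was possible because the colours compared come from 1 plate. Alternatives for Cd28 were not run.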

Other observations

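Red fluorescence, recorded at the sort in arbitrary units that can be negative, was set beside detection within green cells. Its median was -120.5 in Klrg1-positive and 94.5 in Klrg1-negative cells, -120.5 and 67.0 for Icos, and -159.0 and 78.0 for Tnfrsf18. The medians were -277 and 111 for Tnfrsf25 and -43 and 17.5 for Cd200r1. The order was the other way for Pdcd1 (9.0 in positive and -123.0 in negative cells), Tnfrsf9 (145 and -16) and Ctla4 (4.5 and -12.5). The medians of positive cells rest on only 5 cells for Tnfrsf9 and 2 for Ctla4. Depth was not matched here, and positive cells had more genes. Their median gene numbers were 2145.5 against 1067 for Klrg1, 2207 against 1341.5 for Icos, 2374 against 1163 for Tnfrsf18 and 2313 against 1363 for Pdcd1. Red cells ran from 2202 to 29626, and the brightest of them held Klrg1, Pdcd1, Tnfrsf18 and Tnfrsf25 but not Icos.

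Of the green cells, 2 held 10 or more cell cycle genes. The first, with 25 such genes, held Klrg1 and Icos, and the second, with 17, held Klrg1, Icos, Ctla4 and Tnfrsf18. The second was thus 1 of the 2 green cells with Ctla4.

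Among the 57 sorted wells that did not pass the filter, Klrg1 was detected in 1, Icos in 1 and Tnfrsf18 in 2. The well positive for Icos held 395 reads of it.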
